A study of Drosophila melanogaster with 2 samples.

Results

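Distal intergenic peaks are the sites where Bgb-eGFP was recovered outside annotated gene bodies and away from gene starts. They were taken from the conservative list of a chromatin immunoprecipitation sequencing (ChIP-seq) experiment on Drosophila melanogaster. A peak counted as distal intergenic when its summit lay more than 1000 bp from every transcription start site (TSS) and outside every gene body, with transposable elements left out of the genes. This held for 203 of 4488 peaks, or 4.52% (exact 95% interval 3.93 to 5.17). Of the others, 3966 were promoter peaks, with a summit within 1000 bp of a TSS, and 319 were distal peaks inside gene bodies.

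The experiment had 1 group of 2 biological replicates, each of whole embryos aged 0 to 24 h from the transgenic strain Bgb-GFP, which carries Bgb (Big brother) fused to eGFP. The labels name an anti-GFP antibody in their free text and Bgb in their antibody entry, so the antibody is not settled here. They do not give the regulatory sequence that drives the fusion. There was no second genotype, treatment or stage, and control libraries were not analysed here. Whole embryos mix all tissues and ages, so a peak cannot be assigned to a cell type.

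Bgb is a fly homolog of CBF-beta, a protein that does not bind DNA by itself but joins Runt domain transcription factors and strengthens their hold on DNA. Intergenic sequence in flies holds enhancers, which act on promoters at a distance, and insulator sites, bound by proteins such as CTCF and Su(Hw), which separate neighbouring regulatory domains. BEAF-32 and DREF recognise related sequences and are known chiefly from the promoters of housekeeping genes. Short distances between genes, some of which end close to each other on opposite strands, are common in the fly genome.

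The summit sequences of strong members show what these sites look like. Each sequence below is the 101 bases centred on a summit, in the dm6 build, read on the plus strand of the RefSeq genome sequence. Capitals mark the BEAF-32 sequence (CGATA followed by A or G, on either strand), the DREF sequence TATCGATA, which overlaps it, and the 6-mer CATGTA on either strand. The first 3 are the strongest members, and the last 2 are among the strongest with TATCGATA.
Between Ptp4E and CG15468, chrX:4956077-4956177: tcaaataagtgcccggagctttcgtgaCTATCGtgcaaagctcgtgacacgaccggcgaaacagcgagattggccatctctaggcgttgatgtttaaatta
Between CG8565 and ArgRS, chrX:15841525-15841625: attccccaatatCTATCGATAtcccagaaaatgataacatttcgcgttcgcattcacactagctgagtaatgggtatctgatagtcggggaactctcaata
Between hth and CG6465, chr3R:10675319-10675419: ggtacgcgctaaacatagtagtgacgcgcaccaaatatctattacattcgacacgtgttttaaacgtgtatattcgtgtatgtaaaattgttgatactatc
Between hry and SrpRbeta, chr3L:8718716-8718816: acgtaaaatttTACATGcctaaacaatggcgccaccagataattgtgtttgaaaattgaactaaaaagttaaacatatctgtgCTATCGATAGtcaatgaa
Between CG3168 and RpL17, chrX:6741217-6741317: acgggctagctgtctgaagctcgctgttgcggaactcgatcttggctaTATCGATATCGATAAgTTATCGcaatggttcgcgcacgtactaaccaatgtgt
The peak beside Ptp4E held 1 BEAF-32 match, and the one beside ArgRS held 1 match to it and 1 to the DREF sequence. The peak beside CG6465 had neither. The peak beside RpL17 had 2 matches to each within a short stretch.

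Another sequence at the summits was the core of the CTCF recognition sequence, AGGTGGCG, which alone is in capitals here, on either strand. Of the 11 members that held it, 4 also held the BEAF-32 sequence, among them the first 2 shown. CTCF is a zinc finger protein that marks domain borders in fly chromatin.
Between CG4593 and CG12541, chrX:7015208-7015308: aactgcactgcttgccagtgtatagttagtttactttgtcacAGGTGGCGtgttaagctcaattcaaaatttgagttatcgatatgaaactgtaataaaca
Between zfh1 and wts, chr3R:30789423-30789523: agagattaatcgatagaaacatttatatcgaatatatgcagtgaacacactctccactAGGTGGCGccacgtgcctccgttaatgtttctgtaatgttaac
Between CG13970 and CG10651, chr2L:20121078-20121178: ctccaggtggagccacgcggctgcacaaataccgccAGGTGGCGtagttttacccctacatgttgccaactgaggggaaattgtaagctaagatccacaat
The match lay a median 12 bp from the summit over the 12 matches in 11 members, and 9 of the 12 lay within 25 bp.

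The 6-mer with the lowest p against nearby sequence was CATGTA, in capitals here on either strand. It was singled out after the 6-mers had been tested, and no factor is assigned to it.
Between Jhbp1 and CG14662, chr3R:4971023-4971123: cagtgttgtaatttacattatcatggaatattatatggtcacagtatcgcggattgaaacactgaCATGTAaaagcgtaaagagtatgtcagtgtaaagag
Between Vsx1 and CG34435, chrX:5613139-5613239: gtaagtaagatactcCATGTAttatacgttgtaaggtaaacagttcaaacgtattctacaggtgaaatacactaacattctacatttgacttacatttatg
Between CG31637 and eya, chr2L:6527112-6527212: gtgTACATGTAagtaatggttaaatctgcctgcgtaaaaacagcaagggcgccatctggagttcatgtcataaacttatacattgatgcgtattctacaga
Between CG41099 and CG42402, chr3R:4052891-4052991: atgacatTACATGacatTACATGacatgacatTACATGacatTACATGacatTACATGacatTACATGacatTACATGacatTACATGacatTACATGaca
The window beside CG42402 is a short tandem repeat with 9 copies of the 6-mer. The next highest number in a window was 5.

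The consensus for Runt domain proteins is A or G, ACC, A or G, then CA. It is shown in capitals in 2 of the 5 members that held it, since these proteins are the DNA-binding partners of Bgb.
Between phu and RhoL, chr3R:9496880-9496980: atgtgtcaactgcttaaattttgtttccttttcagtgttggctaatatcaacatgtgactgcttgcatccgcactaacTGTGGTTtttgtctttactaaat
Between Mnt and Rala, chrX:3704251-3704351: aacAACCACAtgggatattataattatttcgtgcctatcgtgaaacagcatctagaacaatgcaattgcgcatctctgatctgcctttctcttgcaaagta
These sites had signals of 292 and 120.

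The signal of a peak is the authors' deposited value in the units of their peak caller, and it ranks peaks within a list. The median over the 203 members was 135 (interquartile range 88.7 to 193, range 2.55 to 728). Promoter peaks had a median of 151 and distal peaks inside gene bodies one of 98.4. Members were nearly missing from the top of the list. The strongest 10% of peaks held 2 members among 449, or 0.445% (exact 95% interval 0.054 to 1.60). In the other 9 bins of equal size their share ran from 3.34% to 7.14% with no steady trend. The share of distal peaks inside gene bodies rose from 0.668% in the strongest bin to 14.0% in the ninth and 13.2% in the last.

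**Figure D1:**
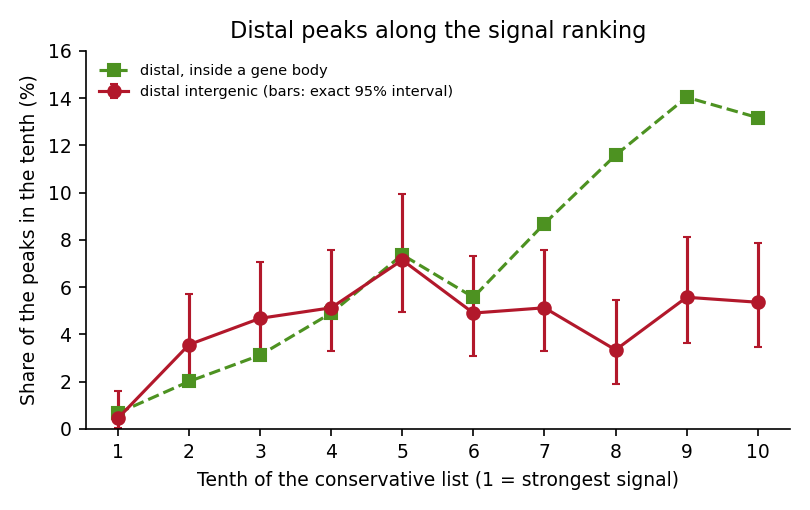
Share of distal intergenic peaks (red circles, with exact 95% intervals) and of distal peaks inside gene bodies (green squares) in 10 bins of the conservative list, ordered from the strongest signal. The red points stay between 3.34% and 7.14% after the first bin, where 2 of 449 peaks were distal intergenic, while the green points rise to 14.0% in the ninth bin.

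The strongest member lay on the X chromosome, 211 bp past the 3' end of Ptp4E, a receptor tyrosine phosphatase gene, and 5001 bp from the TSS of CG15468. Its signal was 728, and it was 477 in replicate 1 and 251 in replicate 2. The next lay between CG8565 and ArgRS, which encodes the arginyl-tRNA synthetase, with 631 in the list and 350 and 278 in the replicates. These were the only members above 600.

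The third member, with a signal of 425, lay 191 bp past the 3' end of CG6465 and 35801 bp upstream of hth, a homeodomain partner of Hox proteins. A peak 2588 bp past Jhbp1, a juvenile hormone binding protein gene, followed with 404. The peak 102 bp past inc, a gene needed for normal sleep, had 388. That between Vsx1, a homeobox gene of the visual system, and CG34435 had 386. The peak beside SrpRbeta, a subunit of the signal recognition particle receptor, had 385 and lay 183 bp past its 3' end. The pair-rule gene hry was its other neighbour, 39513 bp away.

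CG42402 had the only member of the 15 strongest that was higher in replicate 2, with 170 in replicate 1 and 208 in replicate 2. It lay 24998 bp upstream of that gene, and its list signal was 383. The remaining members among the 15 strongest ranged from 326 to 359. They lay beside CG9380, the mitochondrial ribosomal protein gene mRpS5, CG8180, the stress peptide gene TotX, eya, lgs and CG8929. Of these, eya encodes a transcriptional coactivator of eye formation and lgs an adaptor of Wingless signalling. The peak nearest to the TSS of TotX lay between the ends of Grik, a glutamate receptor gene, and CG31191.

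The deposited signals of both replicates were compared without rescaling, because no scaling between them is stated. A matching ranked peak was found for 201 members in replicate 1, with a median signal of 83.6, and for 200 in replicate 2, with a median of 51.9. Of the 198 with both, 172 were higher in replicate 1 and 26 in replicate 2. The log2 ratio of replicate 1 to replicate 2 had a median of 0.56 and an SD of 0.57 over these members. It was 0.69 over promoter peaks, so the direction was shared with the rest of the list.

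**Figure D2:**
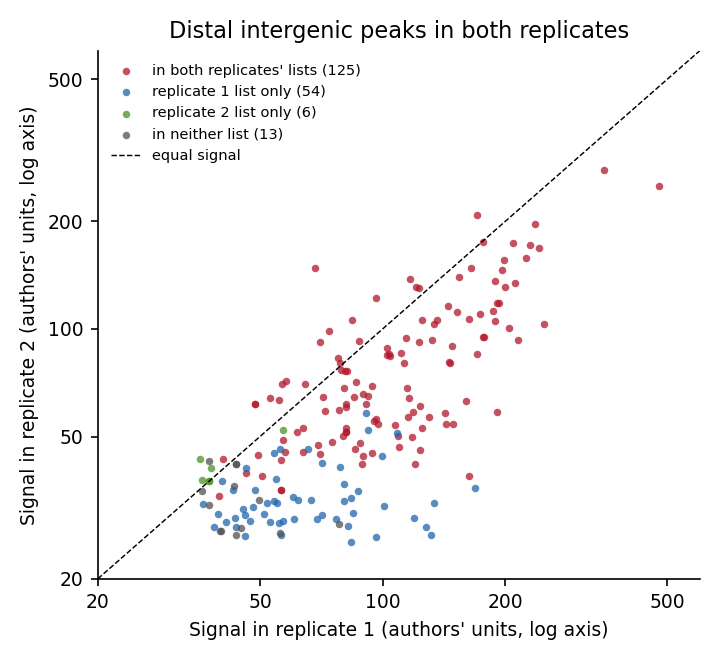
Signal of each distal intergenic peak in replicate 1 (horizontal, log axis) and replicate 2 (vertical, log axis), in the authors' units, for the 198 members matched in both. Most points lie below the line of equal signal, since 172 members were higher in replicate 1, and the 125 members in both replicates' lists reach the highest signals.

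The thresholded list of replicate 1 overlapped 182 members by at least 1 bp, or 89.7% (exact 95% interval 84.6 to 93.5). The list of replicate 2 overlapped 132, or 65.0% (58.0 to 71.6). Both lists held 125 members and neither held 14. Promoter peaks recurred in 92.1% and 69.4%, and by two-sided Fisher's exact test the differences from members missed the threshold (adjusted p = 0.231 for both replicates, over 4 tests). Distal peaks inside gene bodies recurred less often than members, in 74.6% of cases in replicate 1 (adjusted exact p = 6.11e-05) and in 49.5% in replicate 2 (adjusted exact p = 0.00118). Their median signal was also lower, as given above, and the part of signal in this difference was not tested. The conservative list was itself made from these replicates, and the tests cover the counting of regions, since regions of the same libraries are not replicates.

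Members were spread over the chromosome arms. Arm 2L had 36, 2R had 42, 3L had 43, 3R had 51 and X had 26. None lay on Y, which had no peak of any class. The small chromosome 4 had 5 members among 25 peaks, a share of 20% with an exact 95% interval of 6.83 to 40.7. It had 23.0 members per Mb of sequence that met the location rule, against 5.68 over all arms, Y included. The value for chromosome 4 rests on 5 members in 0.217 Mb. Its other peaks were sparser than elsewhere, with 18.0 per Mb of other sequence against 42.3 over all arms. The members of chromosome 4 lay beside lgs, dati, fuss and bt, and 2 of them were a close pair beside fuss. Sequence meeting the rule made up 26.1% of the known bases on the chromosome arms, Y included, or 35.7 Mb.

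The median distance from a member to the nearest TSS was 2639 bp, and 80 members lay over 2000 and up to 5000 bp away. Just inside the limit were the peaks beside Myo10A at 1017 bp, CG42662 at 1028 bp and Der-1 at 1033 bp, with signals of 133, 159 and 66.3. Just outside were those of RabGGTa at 997 bp, CG33453 at 991 bp and CG43248 at 988 bp, with signals of 131, 121 and 78.1. The nearest TSS belonged to a protein-coding gene for 157 members and to a noncoding RNA gene for 42, to a tRNA gene for 3 and to a snoRNA gene for 1.

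Of the 5 members farthest from a TSS, 4 had signals below the median, and the other was the repeat beside CG42402. The farthest lay 32334 bp from the TSS of CG43245, with a signal of 79.8. A pair of members in the gap between Elk and PpY-55A lay 27339 and 27135 bp from a TSS, with 83.8 and 2.55. A peak 20217 bp from ems, a head gap gene, had 66.1 and was in the list of neither replicate.

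Some members lay beside each other. There were 9 groups of 2 members within 5000 bp. In 6 of these the summits were 202 to 213 bp apart, beside CG13786, PpY-55A, RYBP, Reg-2, fuss and the CG3842 and CG3847 pair. The weaker member of these pairs had a signal between 2.55 and 81.7. At PpY-55A both members matched the same ranked peak in each replicate, of 56.2 and 35.5. The other groups lay beside Ugt37C1, Teh1 and sll. Overlapping members merged into 197 regions of 64.7 kb in all.

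Many members sat just past the end of a gene. The distance used here, 500 bp from an annotated gene 3' end, was chosen after seeing the data, so the shares are given without a test. It held for 93 of the 203 members, or 45.8% (exact 95% interval 38.8 to 52.9). Of the sequence that meets the location rule, 4.20% lay that close to a 3' end. Ranked intergenic peaks that were not in the conservative list had a share of 6.35% over 12594 peaks. The list of replicate 1 gave 37.1% over 307 peaks of this kind and that of replicate 2 gave 47.1% over 153. For 88 of the 93 members the nearest end was that of a protein-coding gene. Members within 500 bp of an end had a median signal of 151, against 124 for the others.

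**Figure D3:**
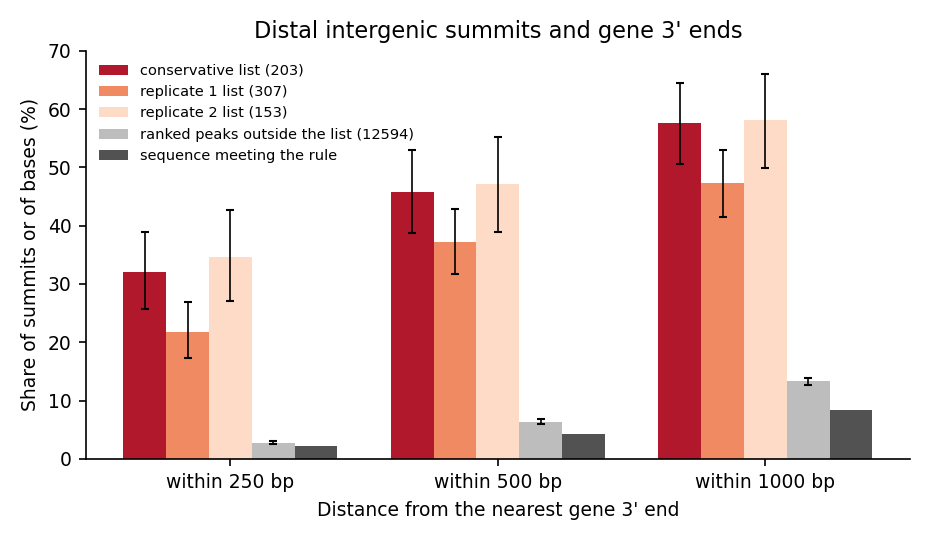
Share of distal intergenic summits within 250, 500 or 1000 bp of an annotated gene 3' end in the conservative list and in each replicate's list, beside ranked intergenic peaks outside the conservative list and the sequence meeting the same location rule. Bars on the first 4 sets are exact 95% intervals. At 500 bp the conservative list reaches 45.8%, the ranked peaks outside it 6.35% and the sequence 4.20%.

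The genes on either side most often had the same orientation. Convergent genes, which point towards each other, took a larger share of members than of the sequence, a difference that was not tested. Flanking protein-coding genes were convergent for 64 members, or 31.5% (25.2 to 38.4), while 23.5% of the sequence that met the rule lay between convergent genes. Divergent genes flanked 39 members, or 19.2% (14.0 to 25.3), beside 22.6% of the sequence. The remaining 99 with genes on both sides lay between genes of the same orientation, 48.8% beside 53.9% of the sequence.

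A group of 24 members, also picked out after seeing the data, lay between convergent genes at most 1000 bp apart. Their median signal was 202 and it was 129 for the other 179. The peak between Tpr2 and CG5953 had 269, with 176 in replicate 1 and 94.8 in replicate 2, in a gap of 456 bp. The peak between Golgin97, a Golgi protein gene, and arr, a Wingless co-receptor gene, had 268, with 152 and 112 in the replicates. Between Cat, which encodes catalase, and the citrate transporter gene Indy a peak had 267, with 177 and 95.03. At eya the gap to CG31637 was 450 bp and the signal was 337, with 196 and 146. The Egfr receptor gene ended 141 bp from a peak of 164, the single member of the examples here that was higher in replicate 2, with 70.3 and 92.0. Of the 24, 23 were in the list of replicate 1 and 21 in that of replicate 2.

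Sequence at the summits was compared with windows of the same length centred 500 bp to either side. Of 17 consensus motifs, 3 (17.6%) were more frequent at the summits and none (0%) less frequent at an adjusted p under 0.05, by two-sided Fisher's exact test with Benjamini-Hochberg adjustment. The test counts all windows as independent and does not pair a summit with its own flanks. Motifs were searched on both strands. A match is a description of the letters and does not show that a factor was bound.

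The CTCF core AGGTGGCG was in 11 members, or 5.42%, and in 0 of 406 flanking windows (adjusted exact p = 7.98e-05). A count of 0 there allows a share of up to 0.739% at 3 counts, and the upper end of its exact 95% interval is 0.904%. Among peaks at or above the median signal the core was in 4 of 94 members and again in 0% of flanks, and the call was lost (adjusted exact p = 0.067). The BEAF-32 sequence was in 34 members, or 16.7%, and in 7.64% of flanks (adjusted exact p = 0.00677). That call was lost when only members over 2000 bp from a TSS were used, with 14.0% of 129 members and 8.91% of flanks (adjusted exact p = 0.389). It was also lost when transposable elements counted as genes, with 14.8% of 169 members and 7.40% of flanks (adjusted exact p = 0.0819). That setting leaves out summits within 1000 bp of an element's TSS too, beyond the 7 members with a summit inside an element. The DREF sequence TATCGATA was in 11 members, or 5.42%, and in 0.493% of flanks (adjusted exact p = 0.00155). All 11 also held the BEAF-32 sequence, so these calls overlap. Of the 192 members without TATCGATA, 23 held the BEAF-32 sequence, and this remainder was not tested. The DREF sequence lost its call in the same settings. Over 2000 bp it was in 4.65% of members and 0.388% of flanks (adjusted exact p = 0.0545). When transposable elements counted as genes it was in 2.96% and 0.296% (adjusted exact p = 0.0819). The core of the Su(Hw) sequence, TGCATA followed by C or T at both of the next positions, was in 4.93% of members and 1.72% of flanks and missed the threshold (adjusted exact p = 0.146).

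The Runt domain consensus was not more frequent at the summits. It was in 5 members, or 2.46% (exact 95% interval 0.804 to 5.65), and in 22 of 406 flanks, or 5.42% (unadjusted p = 0.142 by two-sided Fisher's exact test). Of these members, 4 lay beside RhoL, Sid, Mnt and Zif, with signals of 292, 133, 120 and 61.1. Mnt encodes a basic helix-loop-helix repressor.

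Against promoter summits the order was the other way for the BEAF-32 and DREF sequences. Of the 17 motifs, 3 (17.6%) were less frequent in members and 2 (11.8%) more frequent. The BEAF-32 sequence was in 41.3% of 3966 promoter windows (adjusted exact p = 6.02e-12 against the 16.7% of members) and the DREF sequence in 16.8% (adjusted exact p = 1.78e-05). The E-box CAGCTG, a site for basic helix-loop-helix factors, was in 3.45% of members and 8.93% of promoter summits (adjusted exact p = 0.0154). The CTCF core was in 0.782% of promoter summits (adjusted exact p = 1.78e-05), below members, and so was the Su(Hw) core with 1.66% (adjusted exact p = 0.0146). The Runt domain consensus was in 4.97% of promoter windows, a difference that missed the threshold (adjusted exact p = 0.314).

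Distal summits inside gene bodies gave no such contrast. By Fisher's exact test 0 of the 17 motifs (0% higher, 0% lower) and 0 of 2080 6-mers (0% higher, 0% lower) passed an adjusted p under 0.05. At an unadjusted p under 0.05 the counts were 2 motifs and 159 6-mers. The CTCF core was in 3.13% of the 319 gene body summits, the BEAF-32 sequence in 11.6% and the DREF sequence in 1.88%. Each was more frequent there than in the flanks of the gene body summits. Those flanks had 0.157%, 5.96% and 0.157% in the same order (adjusted exact p = 0.00202, 0.0267 and 0.0378).

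**Figure D4:**
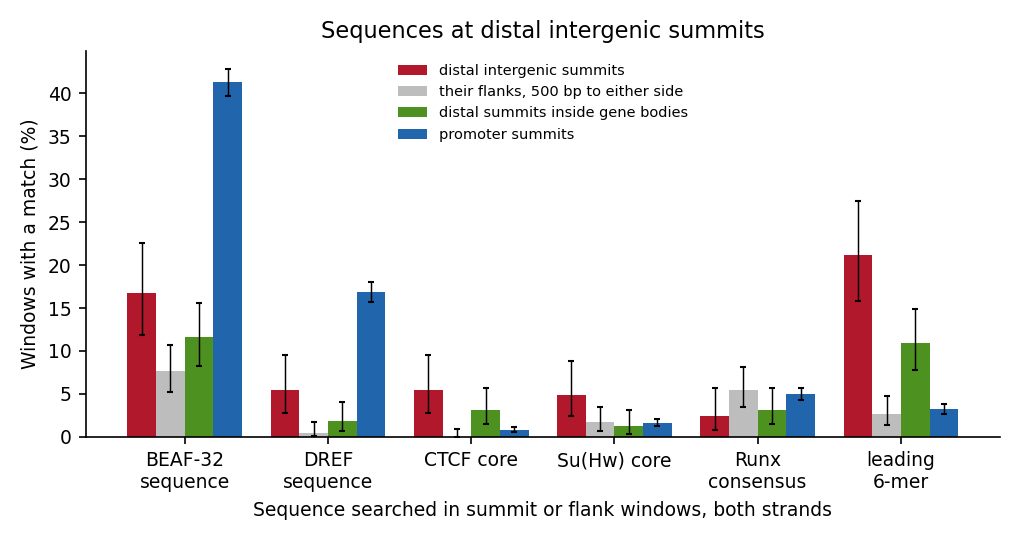
Share of 101-bp windows with each sequence, on either strand, at distal intergenic summits (203), in their flanks (406), at distal summits inside gene bodies (319) and at promoter summits (3966), with exact 95% intervals. The BEAF-32 and DREF sequences reach 41.3% and 16.8% at promoter summits, and the leading 6-mer, CATGTA, reaches 21.2% at distal intergenic summits.

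All 2080 6-mers, each joined with its reverse complement, were tested in the same way against the flanks. More frequent at the summits were 39 (1.88%), and 5 (0.24%) were less frequent. CATGTA led, with 43 members or 21.2% (exact 95% interval 15.8 to 27.5) and 2.71% of flanks (adjusted exact p = 6.32e-10). TCTACA was in 22.2% of members and 4.19% of flanks, and ATGTAA in 26.6% and 6.65%. Of the 39, 11 contained TGTA or its reverse complement, as did 48 of all 2080. CATGTA and TCTACA occurred together in 20 members, and 68 had at least 1 of them. Leaving out the tandem repeat beside CG42402 gave 42 of 202 members with CATGTA, or 20.8%.

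Against promoter summits 72 of the 6-mers (3.46%) were more frequent in members and 35 (1.68%) less frequent. CATGTA was in 3.20% of promoter windows (adjusted exact p = 2.14e-17). It was in 11.0% of the distal summits inside gene bodies and in 3.45% of the flanks of those. The 6-mers less frequent in members than in their flanks included AATTAA, with 7.39% and 20.2%. Median GC content was 40.6% at the summits, 38.6% in the flanks and 44.6% at promoter summits.

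CATGTA went with the gene ends described above, in a comparison made after seeing both and therefore not tested. Of the 43 members with it, 28 lay within 500 bp of a 3' end, or 65.1%. Of the 160 without it, 65 did, or 40.6%. Among the 24 members between close convergent genes 11 held it, or 45.8%, as at eya and Tpr2. Members with CATGTA had a median signal of 160 and a median GC content of 33.7%, and those without it 129 and 42.6%. The part of base composition in these shares was not tested.

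The 6-mer GCGCCA was in 15.8% of members and 3.69% of flanks (adjusted exact p = 0.000109). It overlaps the end of many CTCF sites, but 24 of the 32 members that held it had no AGGTGGCG. A wider form of the core, AG, A or G, G or T, then GGCG, was tried after this was seen. It was in 27 members, or 13.3% (8.95 to 18.8), in 0.493% of their flanks, in 2.32% of promoter summits and in 9.09% of distal summits inside gene bodies. Of the 27, 5 also held CATGTA. The wider core, CATGTA or the BEAF-32 sequence was in 89 of the 203 members, so most members had none of these.

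**Figure D5:**
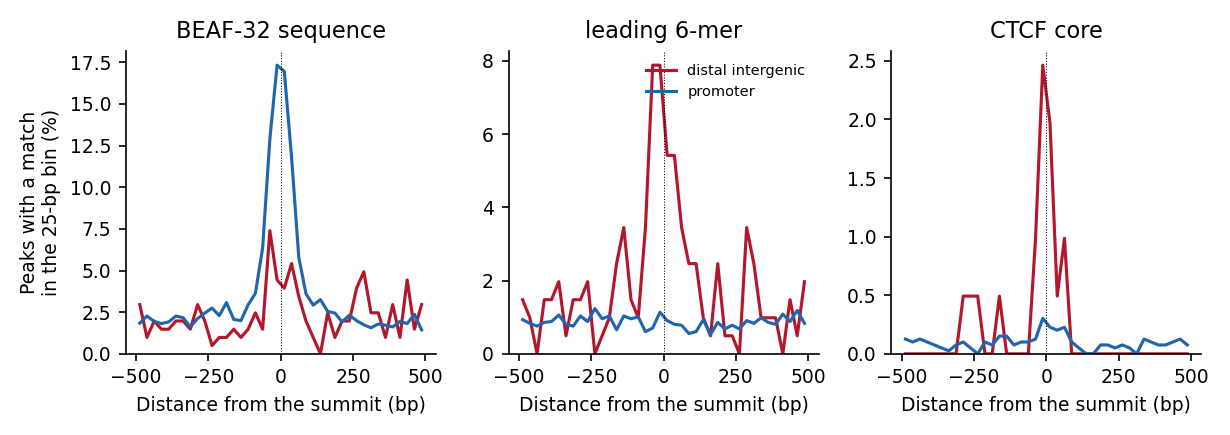
Share of peaks with a match in each 25-bp bin, by distance from the summit in bp along the plus strand, for the BEAF-32 sequence, the 6-mer CATGTA and the CTCF core. Red lines are the 203 distal intergenic peaks and blue lines the 3966 promoter peaks. The BEAF-32 sequence peaks at 17.3% in promoters and at 7.39% in distal intergenic peaks, and CATGTA is flat in promoters and reaches 7.88% in distal intergenic peaks.

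Members with the CTCF core had a median signal of 135, equal to that of all members to 3 digits. The highest was the peak 249 bp past CG4593, with 291 in the list, 204 in replicate 1 and 100.5 in replicate 2. The peak between zfh1, a zinc finger homeodomain gene of mesoderm, and wts, a Hippo pathway kinase gene, had 196, with 142 and 58.3. Other members with the core lay near upd2, which encodes a ligand of the JAK-STAT pathway, with 102, and between the homeobox gene Rx and the actin gene Act57B, with 85.0. Of the 11, 9 were in the list of replicate 1 and 6 in that of replicate 2.

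Transposable elements held few members. INE-1, a short element that is common in the fly genome, held 7 (3.45%, exact 95% interval 1.40 to 6.98), and no other element held any. INE-1 made up 0.524% of the sequence meeting the rule and all transposable elements 11.1%. The strongest of the 7 was the peak beside ArgRS. Of the 7, 4 had the BEAF-32 sequence and 6 were in the list of replicate 1. Copies of a repeat share their sequence, so reads at these sites can be split or misplaced between copies, and how they were handled is not given in the sources used here.

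Developmental genes were among the neighbours. In 16 gene lists, a member counted when its nearest or a flanking protein-coding gene was in the list. These counts were made for members alone, so they have no background share. A comparison with the other peaks by the nearest gene alone is given below. In each of the segmentation, Notch, EGFR and insulator lists, 1 name matched no gene symbol and was not used. The segmentation genes had 7 members beside 6 of their 26 genes. The peak in the gap between kni, a gap gene, and cmpy had 232, with 125 in replicate 1 and 106 in replicate 2. A peak between Wnt4 and wg, both Wnt ligand genes, had 241 and lay 25519 bp from wg. Between the pair-rule genes slp1 and slp2 the signal was 72.1, and the second member in the neighbourhood of hry, beside Pex7, had 144.

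The eye list had 5 members beside B-H2, ey, eya and toy. Both Pax6 genes of the fly, ey and toy, are on chromosome 4. The peak 794 bp past ey had a signal of 79.9. The stronger of the 2 between fuss and toy had 316, with 165 and 148 in the replicates, and the weaker had 81.7. The peak between CG5445 and the homeobox gene B-H2 had 158.

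Mesoderm genes had 3 members. They lay between tin and bap, homeobox genes of heart and gut muscle, with 155, beside bin with 101, and at zfh1 as given above. The hemocyte list had 1, which lay 140 bp past srp, the GATA factor gene of blood cell precursors, with 243, and 123 in replicate 1 and 130 in replicate 2. Its other neighbour was GATAe, a gut GATA factor gene. The Hox list had a peak 8478 bp from abd-A with 182 and one near Dfd with 128, which was in neither replicate's list.

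Of the other lists, that of the Notch pathway had 2 members, both in the gap between numb and Gdi, with 222 and 63.1. The EGFR list had the peak at Egfr and one 24162 bp from vn, a ligand gene, with 144. The ecdysone list had 2 in the gap between CG5290 and Eip75B, with 89.8 and 13.1. The axon guidance list had 1, in the gap between tey and CG8765, with 86.9. The chemosensory list, of receptor and odorant-binding protein genes, had 6 members beside 6 of 230 genes. The strongest lay 157 bp past Gr98d with 209. Ribosomal protein genes had 2, 270 bp past RpL17 with 295 and 446 bp past RpL37-1 with 223. Cuticle protein genes had 3, the strongest 807 bp past Cpr76Ba with 264. No member lay beside the Runt domain genes and their partners, the list of 17 Wnt and Dpp pathway genes (which lacks Wnt4, arr and lgs, and has wg among the segmentation genes instead), the neural list or the insulator and core promoter factor genes, which 203 members limit to a share of up to 1.48% each.

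For a comparison with the other 4285 peaks, the nearest protein-coding gene alone was counted in both, without a test since no list had more than 2 such members. The segmentation, mesoderm, chemosensory and cuticle lists had 2 each, or 0.985% of members, and took 0.140%, 0.117%, 0.117% and 0.0233% of the other peaks. The Hox, Notch, eye, ecdysone and ribosomal protein lists had 1 each, or 0.493%, and took 0.280%, 0.397%, 0.140%, 0.653% and 1.33% of the other peaks. The remaining 7 lists had 0 members by this measure and took 0.0700% to 0.537% of the other peaks.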

How the data were processed

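Peak lists on the dm6 build, deposited by the authors, were used as they stand. Per the labels, the immunoprecipitations were made from sonicated chromatin of whole embryos, and per the file names the lists follow a comparison of reproducibility between replicates (IDR). Which aligner and peak caller were run is not given in the sources used here. Each peak's signal is a value the authors deposited, and its scaling between libraries is not stated. Depth per library is unknown, so intervals and tests cover the counting of regions only, and they do not reach the spread between embryos.

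Summits (start plus offset) were set against the Ensembl BDGP6 annotation (release 115) and the RefSeq sequence of the same assembly. A replicate's signal was read at the overlapping ranked peak with the nearest summit. Windows of 101 bp at summits were compared with windows centred 500 bp to either side, which can lie inside a neighbouring gene, with promoter summits and with distal summits inside gene bodies. Two-sided Fisher's exact tests were adjusted by the Benjamini-Hochberg method over 17 motifs, 2080 6-mers or 4 recurrence tests, with a threshold of 0.05. The motifs at gene body summits and at promoter summits were tested against their own flanks in the same way. For members against their flanks, the Runt domain consensus was a single test. Shares have exact (Clopper-Pearson) 95% intervals, and the limit allowed by a count of 0 is 3 counts. Only the 6-mer search was checked on simulated data, with CATGTA planted in random windows at up to about the frequency seen here. Those windows were independent and of a single base composition, unlike summits and their flanks. The motif and recurrence tests were not simulated.

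The members, motifs and gene lists were chosen with earlier results of these data known. Genes were named beside the 15 strongest members, the 5 farthest from a TSS, the 3 on each side of the distance limit, groups within 5000 bp, members with the Runt domain consensus, and members beside a gene of a list. Of the members with the Runt domain consensus, 1 is not reported here by name. Peaks named for CATGTA, the CTCF core, gene ends or close convergent genes outside that rule were chosen after their values were seen. The software was scipy 1.17.1, pandas 2.3.3 and numpy 2.4.6 under Python 3.11.15, with matplotlib 3.10.9 for figures.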

Additional observations from a re-analysis of the deposited data

How the results depend on the processing

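No paired analysis between samples was possible because the replicates form 1 group. The pairing of each summit with its own flanks was not used in the tests. The share of distal intergenic peaks was 5.33% in the second series list, 6.62% and 2.87% with TSS distances of 500 and 2000 bp, 3.77% with transposable elements as genes, and 6.93% with protein-coding genes alone. It was 4.78% to 5.07% in the lists of single replicates. The median signal was 89.8 in the second list, 201 in the stronger 50% of peaks, and 64.1 to 70.2 in single replicates. How the signals of single replicates are scaled relative to the series lists is not stated. The BEAF-32 share lost its call over 2000 bp (14.0%) and with transposable elements as genes (14.8%), and kept it in the other 8 settings. Both settings also left 1 motif called, and a half-window of 100 bp gave 6. The number of 6-mers called was 89 in the second list, 24 to 96 in single replicates, 19 over 2000 bp, 26 with transposable elements as genes, 78 with protein-coding genes alone, 27 in the stronger 50% and 29 with flanks at 1000 bp. Without the weaker of close pairs it was 40. Flanks at 1000 bp keep the number of windows, and so does the half-window of 100 bp, which changes their length. The other settings change the number. The cause of the changes was not tested. Recurrence in the list of replicate 1 turned above that of promoters in the stronger 50% (100% and 99.6%, p = 1 by Fisher's exact test). The Runt domain consensus missed the threshold in all 10 settings, and CATGTA kept its call in 11. The CTCF core lost its call in the stronger 50% (4.26% and 0% of flanks, adjusted exact p = 0.067), and the DREF sequence over 2000 bp and with transposable elements as genes. The share near gene 3' ends was 32.0% at 250 bp and 57.6% at 1000 bp, 37.2% in the second list and 36.3% with protein-coding genes alone. The settings for CATGTA, the CTCF core, the DREF sequence, gene ends and close pairs were chosen after seeing the data. Unknown depth limits what a missing peak can show.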
